A study of Mus musculus with 8 samples.

Results

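The genes described here are 10 receptors and co-receptors through which mouse macrophages sense microbial products: the Toll-like receptors Tlr1, Tlr2, Tlr4, Tlr6, Tlr7, Tlr8, Tlr9 and Tlr13, and the LPS co-receptors Cd14 and Ly96. They were chosen by symbol, as 10 of the 18193 genes that the array covers with a probe set annotated to a single symbol. A probe set is a group of short array probes read as 1 value. Together the 10 genes have 15 such probe sets, and each gene is represented by the one with the highest mean over all arrays. Of the 10 genes, 7 lay above the filter on low values that the comparisons used, and Tlr6, Tlr8 and Tlr9 lay below it.

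Toll-like receptors are membrane proteins whose outer repeats bind a microbial ligand and whose inner domain recruits adapter proteins, which switch on NF-κB and interferon regulatory factors. TLR4 binds LPS, the lipid of the Gram-negative outer membrane, as a complex with MD-2, the product of Ly96, and CD14 hands LPS to that complex. TLR2 pairs with TLR1 or with TLR6 at the cell surface to bind bacterial lipoproteins, and TLR7, TLR8, TLR9 and TLR13 sit in endosomes and bind nucleic acids.

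RNA was measured in RAW 264.7 cells, an established mouse macrophage line, on 8 arrays in 4 groups of 2. The LPS+M cells received menthol for 1 h and then LPS at 100 ng/ml for 6 h. The LPS cells received the control treatment for 1 h and then the same LPS, the M cells menthol without LPS, and the control cells neither agent. The 4 groups share the cell line and the culture medium, and all are a single immortalised line, not primary macrophages. The labels give no menthol concentration and no harvest time for the M and control cells, so a difference in time between groups with and without LPS cannot be told apart from LPS itself. The 2 arrays of a group are labelled as biological replicates without a statement of separate cultures, so that p-values measure only the spread between these arrays. The question behind the comparisons was what menthol does to the response of macrophages to LPS.

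The values are log2 GC-RMA signals, so a difference of 1 is a doubling. Array medians over all probe sets lay between 2.986 and 3.039, replicates correlated at 0.9988 to 0.9994, and arrays of different groups at 0.9955 to 0.9981. A gene was kept when its mean over the 8 arrays was above 4.84, the mean of all probe sets, which left 8908 genes. A gene was called when limma gave an adjusted p (Benjamini-Hochberg, over all kept genes) under 0.05 and a change of at least 1.5-fold, which is 0.585 on the log2 scale. With 2 arrays a group, an exact permutation test of a single gene cannot give a two-sided p below 0.333, so all tests came from limma's fit, which pools the spread over groups and genes. All 6 macrophage markers (Adgre1, Cd68, Csf1r, Lyz2, Fcgr1 and Spi1) were kept, and no T cell, B cell, dendritic cell, fibroblast or epithelial marker was. Of 4 measured neutrophil markers only S100a8 was kept. Among the macrophage markers, LPS compared to control called Adgre1 higher (0.95 ± 0.07) and Fcgr1 lower (-0.89 ± 0.10), M compared to control called none, and their part in the receptor values was not tested. Of 4 genes used to check the LPS response, Acod1 and Il1b responded. Acod1 averaged 11.07 in LPS cells and 4.43, under the filter, in control cells. Il1b was below the filter over all arrays, with 5.66 in LPS and 3.09 in control cells. Il6, with 2.52 in LPS and 2.30 in control cells, and Nos2, with 1.91 in both, were not called in the fit without the filter. In RNA from a whole culture, fewer cells of a kind and less RNA per cell cannot be told apart.

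The promoters of Tlr2 and Tlr1 are shown because these were the receptor genes called higher with LPS. Windows of 250 bases before to 50 bases after a RefSeq transcript start were available for 6 of the 10 genes (GRCm38.p6). Each is written 5′ to 3′ on the strand of the gene, and capitals mark matches to the κB motif, the binding motif of NF-κB, searched on both strands.
Tlr2, chr3:83841559-83841858, minus strand: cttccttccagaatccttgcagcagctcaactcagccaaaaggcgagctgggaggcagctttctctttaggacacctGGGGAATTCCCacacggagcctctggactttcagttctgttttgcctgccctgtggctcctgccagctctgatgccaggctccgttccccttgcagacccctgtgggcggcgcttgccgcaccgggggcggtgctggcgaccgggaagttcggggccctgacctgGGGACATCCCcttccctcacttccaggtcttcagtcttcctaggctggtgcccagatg
Tlr1 first window, chr5:64933509-64933808, minus strand: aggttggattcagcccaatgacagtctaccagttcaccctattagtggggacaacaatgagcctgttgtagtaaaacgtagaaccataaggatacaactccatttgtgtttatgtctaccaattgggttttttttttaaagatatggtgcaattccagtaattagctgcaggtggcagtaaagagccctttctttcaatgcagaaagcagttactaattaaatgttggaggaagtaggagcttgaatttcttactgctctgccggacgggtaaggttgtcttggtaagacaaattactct
Tlr1 second window, chr5:64932650-64932949, minus strand: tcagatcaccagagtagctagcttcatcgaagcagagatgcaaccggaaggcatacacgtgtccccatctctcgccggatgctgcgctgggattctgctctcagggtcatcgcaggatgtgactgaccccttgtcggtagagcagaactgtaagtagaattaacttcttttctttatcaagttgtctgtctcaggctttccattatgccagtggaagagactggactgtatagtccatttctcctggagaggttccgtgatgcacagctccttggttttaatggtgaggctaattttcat
The Tlr2 window held κB matches in 2 stretches, 1 of 11 bases from -173 to -163 relative to the start and 1 of 10 bases from -8 to 2. The first stretch is made of overlapping matches. Of all 32851 mouse promoter windows of this length, 8.5% held a κB match, and neither Tlr1 window held one. The core motif of PU.1, the macrophage lineage factor (GAGGAA on either strand, in 28.3% of all windows), was found at -23 in the first Tlr1 window, at -83 in the window of Tlr13, at -77 in that of Tlr8 and at -112 and 13 in that of Tlr9. An AP-1 motif (TGANTCA, in 7.8% of all windows) was found at -58 in the window of Tlr9 and in no other window of the 6 genes. A match describes the letters of the window and is not evidence of binding.

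Tlr1, whose product binds triacylated lipoproteins together with TLR2, was higher with LPS and lower with menthol. Its log2 signal was 8.70 and 8.73 in LPS+M cells, 9.73 and 9.77 in LPS cells, 7.99 and 7.79 in M cells, and 8.53 and 8.44 in control cells. No array of any group overlapped with another group, and the order of group means from low to high was M, control, LPS+M and LPS. The LPS effect (LPS compared to control) was 1.26 ± 0.08 on the log2 scale (SE, n = 2 each), or 2.40-fold (limma, adjusted p = 3.74e-05). With menthol before LPS the level was 2.04-fold lower than with LPS alone (LPS+M compared to LPS, -1.03 ± 0.08, adjusted p = 0.000158). Menthol by itself gave a 1.51-fold lower level than control (-0.59 ± 0.08, adjusted p = 0.00247), at the edge of the fold minimum. Without control replicate 1 that change was -0.55, and without M replicate 2 it was -0.50, both below the minimum. The difference of LPS+M from control was 0.23 ± 0.08 (adjusted p = 0.0532, not called), and LPS+M compared to M gave 0.83 ± 0.08 (adjusted p = 0.000461). The study itself selected Tlr1 from these arrays, so its values are no independent evidence. It also reported a western blot in which TLR1 protein changed in the same direction as the RNA. Protein was not examined here.

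Tlr2, the shared partner of TLR1 and TLR6, was higher with LPS and stood highest in LPS+M cells. It measured 13.82 and 13.81 in LPS+M cells, 13.27 and 13.28 in LPS cells, 12.09 and 11.98 in M cells, and 11.50 and 11.61 in control cells. The groups did not overlap, and menthol went with the higher level both with and without LPS, opposite in sign to Tlr1. With LPS alone the difference from control was 1.72 ± 0.07 (3.30-fold, adjusted p = 4.27e-06), and in LPS+M cells it was 2.26 ± 0.07 (4.78-fold, adjusted p = 1.29e-06). The menthol steps passed the adjusted p and stayed under the fold minimum. They were 0.54 ± 0.07 for LPS+M compared to LPS (1.45-fold, adjusted p = 0.00143) and 0.48 ± 0.07 for M compared to control (1.39-fold, adjusted p = 0.00328).

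Tlr6, which pairs with TLR2 for diacylated lipoproteins and is the chromosomal neighbour of Tlr1 in the RefSeq annotation, did not share the Tlr1 pattern. All 8 arrays read between 3.60 and 3.77, below the filter, and the largest of its pairwise differences was 0.08 ± 0.05 for LPS compared to control (95% interval -0.04 to 0.21, adjusted p = 0.560 in the limma fit without the filter). At this signal the array may not register a change in the transcript.

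**Figure D1:**
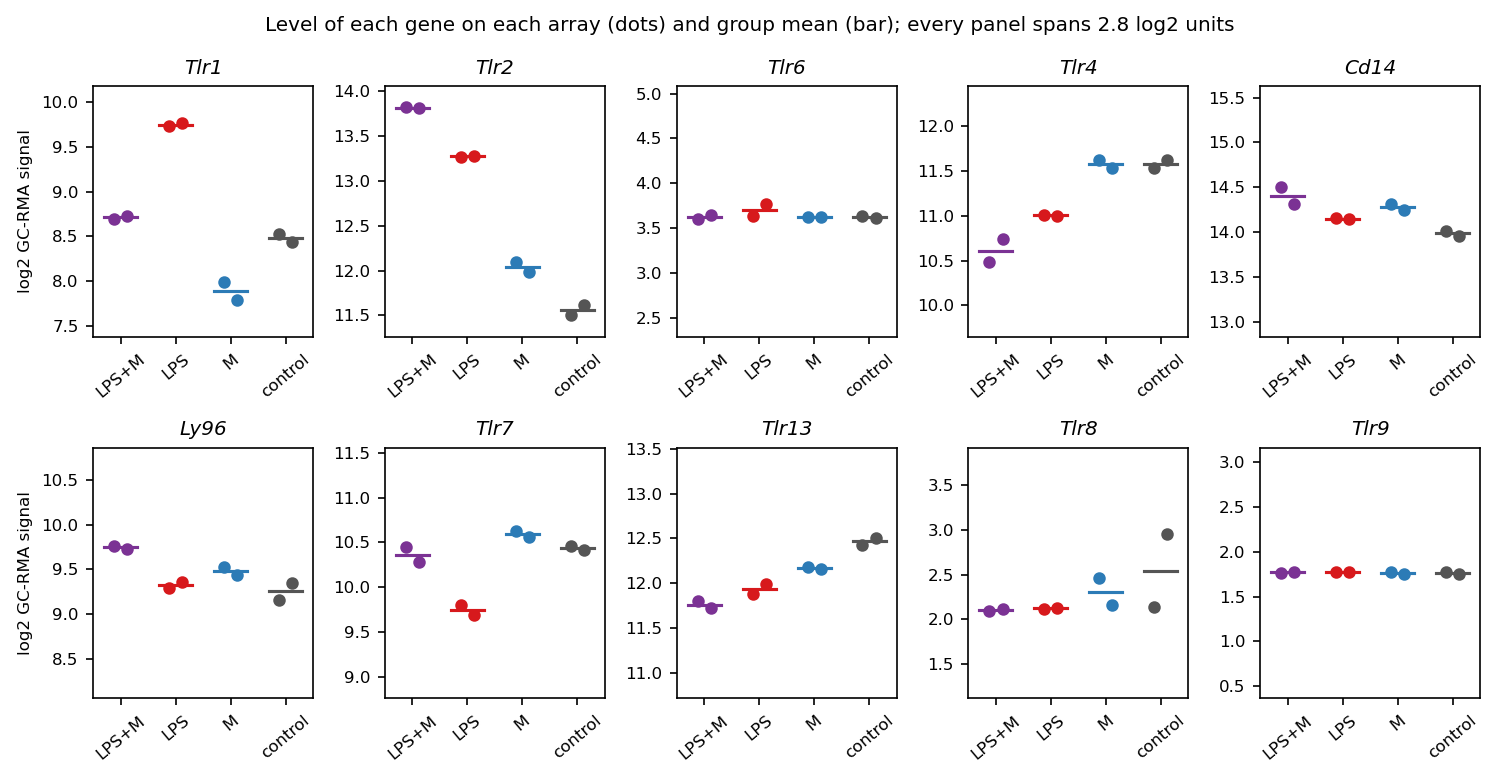
log2 GC-RMA signal (vertical axis) of each of the 10 genes on each array (dots) with the group mean (bars) for LPS+M, LPS, M and control cells. Tlr1 peaks in LPS cells at 9.73 and 9.77, Tlr2 in LPS+M cells at 13.82 and 13.81, and Tlr6, Tlr8 and Tlr9 stay below the filter of 4.84; panels have different offsets, and levels of different genes cannot be compared.

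Tlr4, the signalling receptor for LPS, was lower with LPS, and only by its main probe set was it lowest in LPS+M cells. Its main probe set (1418162_at) read 10.48 and 10.74 in LPS+M cells, 11.01 and 11.00 in LPS cells, 11.62 and 11.54 in M cells, and 11.54 and 11.62 in control cells. The M and control arrays covered the same range, the LPS arrays lay below both, and the LPS+M arrays lay below the LPS arrays. In LPS+M cells the difference from control was -0.97 ± 0.09 (1.96-fold lower, adjusted p = 0.000189), and LPS+M compared to M gave the same -0.97 ± 0.09 (adjusted p = 0.000450). The LPS effect fell just short of the fold minimum at -0.57 ± 0.09 (LPS compared to control, 1.49-fold lower, adjusted p = 0.00375), and LPS+M compared to LPS was -0.39 ± 0.09 (adjusted p = 0.0158). M compared to control was -0.00 ± 0.09 (95% interval -0.21 to 0.21).

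Other Tlr4 probe sets gave a larger LPS difference and no further decrease with menthol. The probe set 1418163_at read 7.04 and 6.94 in LPS+M cells, 6.52 and 6.95 in LPS cells, 8.01 and 7.99 in M cells, and 7.77 and 7.91 in control cells. Its LPS compared to control difference was -1.10 ± 0.14 (limma over all probe sets kept, adjusted p = 0.00262), while LPS+M compared to LPS was 0.25 ± 0.14 (adjusted p = 0.222). The probe set 1442827_at gave -1.34 ± 0.32 for LPS compared to control (adjusted p = 0.0307) and 0.07 ± 0.32 for LPS+M compared to LPS. The probe sets therefore shared the lower level with LPS and did not share the sign of the menthol step after LPS. The last Tlr4 probe set, 1430695_at, lay below the filter with differences of at most 0.02.

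Cd14, the surface protein that delivers LPS to the TLR4 complex, and Ly96, which encodes MD-2, differed little between groups. Cd14 measured 14.50 and 14.31 in LPS+M cells, 14.16 and 14.14 in LPS cells, 14.31 and 14.25 in M cells, and 14.01 and 13.96 in control cells. Ly96 measured 9.76 and 9.73 in LPS+M cells, 9.29 and 9.36 in LPS cells, 9.53 and 9.44 in M cells, and 9.16 and 9.35 in control cells. By group mean both genes were highest in LPS+M cells and lowest in control cells, with overlap between Cd14 arrays of LPS+M and M cells and between Ly96 arrays of LPS and control cells, and neither was called in any comparison. The differences with menthol were positive in both settings. After LPS (LPS+M compared to LPS) they were 0.25 ± 0.08 for Cd14 (adjusted p = 0.0406) and 0.42 ± 0.08 for Ly96 (1.34-fold, adjusted p = 0.00713). Without LPS (M compared to control) they were 0.29 ± 0.08 for Cd14 (adjusted p = 0.0298) and 0.23 ± 0.08 for Ly96 (adjusted p = 0.0751). The LPS effect was 0.16 for Cd14 (95% interval -0.01 to 0.34) and 0.07 for Ly96 (95% interval -0.11 to 0.26), intervals that do not reach the fold minimum. By mean signal Cd14 stood at percentile 99.1 of all genes, and whether the array registers a rise in full at that level was not tested.

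Tlr7, an endosomal receptor for single-stranded RNA, was lower with LPS. Its main probe set (1422010_at) read 10.45 and 10.28 in LPS+M cells, 9.80 and 9.69 in LPS cells, 10.63 and 10.56 in M cells, and 10.46 and 10.42 in control cells. The LPS arrays stood apart below all others, and the LPS+M arrays overlapped with control. With LPS alone the level differed from control by -0.69 ± 0.08 (1.62-fold lower, adjusted p = 0.000688), and LPS+M compared to LPS gave 0.62 ± 0.08 (1.54-fold higher, adjusted p = 0.00123). The menthol step fell under the fold minimum without LPS replicate 2 (0.57) or without LPS+M replicate 1 (0.54).

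That menthol step was not shared by the 2 other Tlr7 probe sets, which also read lower in M than in control cells (-0.41 ± 0.10 and -0.32 ± 0.12, neither called), against 0.15 ± 0.08 in the main one. The probe set 1449640_at read 6.35 and 6.62 in LPS+M cells, 6.56 and 6.70 in LPS cells, 6.87 and 6.83 in M cells, and 7.24 and 7.27 in control cells. The step from LPS to LPS+M was -0.14 ± 0.10 there (adjusted p = 0.337) and 0.14 ± 0.12 in 1419848_x_at (adjusted p = 0.447). Both gave a lower level in LPS+M than in control cells, by -0.77 ± 0.10 (adjusted p = 0.00181) and -0.74 ± 0.12 (adjusted p = 0.00492). All 3 probe sets were called lower in LPS compared to control, at -0.69, -0.62 and -0.88. The lower Tlr7 level with LPS therefore held in every probe set, and its return to the control level in LPS+M cells was seen only in the brightest. The suffix x in a probe set name marks probes that may also bind other transcripts.

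**Figure D2:**
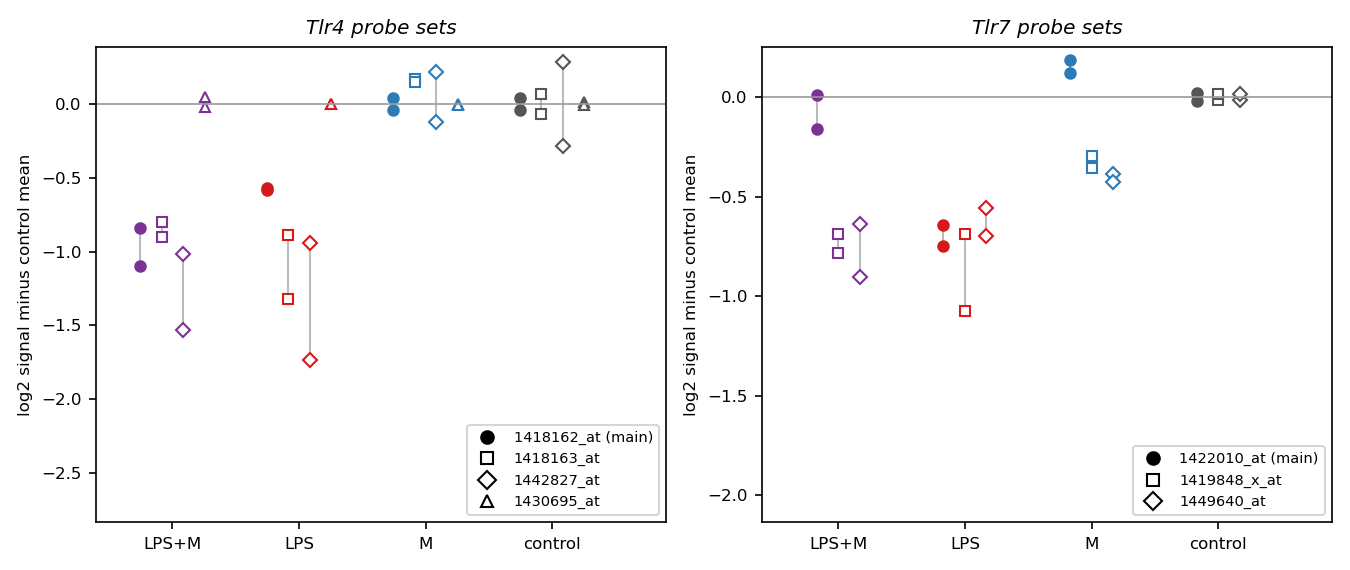
log2 signal of every Tlr4 and Tlr7 probe set on each array minus that probe set's control mean (vertical axis), for LPS+M, LPS, M and control cells; filled symbols are the main probe set, and grey lines join the 2 arrays of a group. In the main Tlr7 probe set LPS+M cells lie near control, whereas the other 2 lie 0.74 and 0.77 below it.

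Tlr13, an endosomal receptor for bacterial ribosomal RNA, was lower in every treated group than in control cells. It measured 11.80 and 11.72 in LPS+M cells, 11.88 and 11.99 in LPS cells, 12.18 and 12.16 in M cells, and 12.43 and 12.51 in control cells. No groups overlapped, and the order of means from low to high was LPS+M, LPS, M and control. Only LPS+M compared to control was called, at -0.71 ± 0.07 (1.64-fold lower, adjusted p = 0.000210). The single treatments gave -0.54 ± 0.07 for LPS compared to control (adjusted p = 0.00133) and -0.30 ± 0.07 for M compared to control (adjusted p = 0.0189), and LPS+M compared to LPS gave -0.17 ± 0.07 (adjusted p = 0.0958).

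Tlr8 and Tlr9 lay below the filter on every array. Tlr9, the receptor for unmethylated CpG DNA, read 1.75 to 1.78 throughout, with a largest difference of 0.01. Tlr8, the chromosomal neighbour of Tlr7, read 2.09 and 2.12 in LPS+M cells, 2.12 and 2.13 in LPS cells, 2.46 and 2.16 in M cells, and 2.14 and 2.95 in control cells. Only control replicate 2, at 2.95, and M replicate 1 stood above the rest, and no Tlr8 difference was called in the fit without the filter (LPS compared to control -0.42 ± 0.26, adjusted p = 0.553). Without control replicate 1 that difference was -0.83 and was called, since the single control array left was the 1 at 2.95. Tlr3, a further member of the family and a receptor for double-stranded RNA, was kept and not called in any comparison, and Tlr5 and Tlr12 lay below the filter.

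Counted over the 7 kept genes, LPS compared to control called Tlr1 and Tlr2 higher and Tlr7 lower, 3 genes, where 6.13% of all kept genes were called. LPS compared to M called the same 3 genes, against 11.3% of all kept genes, with Tlr1 3.62-fold and Tlr2 2.37-fold higher and Tlr7 1.80-fold lower. The other Tlr7 probe sets were not called there, at -0.22 ± 0.10 (limma, adjusted p = 0.140) in 1449640_at and -0.55 ± 0.12 (adjusted p = 0.0138, under the fold minimum) in 1419848_x_at. LPS+M compared to LPS called 2 genes, Tlr7 higher and Tlr1 lower, against 6.71%. M compared to control called Tlr1 alone, against 4.55%. LPS+M compared to M called Tlr1 (1.77-fold) and Tlr2 (3.43-fold) higher and Tlr4 lower, against 4.16%. LPS+M compared to control called Tlr2 higher and Tlr4 and Tlr13 lower, against 9.83%. Probe sets other than the main ones added calls that these counts do not hold. Tlr4 was called lower in LPS compared to control in 1418163_at (-1.10) and 1442827_at (-1.34). Tlr7 was called lower in LPS+M compared to control in 1449640_at (-0.77) and 1419848_x_at (-0.74). These comparisons share arrays, so the counts are not separate pieces of evidence, and with 7 genes each count rests on 1 to 3 of them.

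On the adjusted p alone, with no fold minimum, more of the 7 genes passed. In LPS+M compared to LPS there were 6, all but Tlr13, against 28.7% of all kept genes. Of these, Tlr4 and Tlr7 passed in their main probe sets only. In limma over all probe sets kept, Tlr4 had adjusted p = 0.222 in 1418163_at and 0.901 in 1442827_at. Tlr7 had 0.337 in 1449640_at and 0.447 in 1419848_x_at. In that fit the adjusted p of Cd14 was 0.0542, above the threshold. In M compared to control there were 4 (Tlr1, Tlr2, Tlr13 and Cd14), against 21.7%. Tlr1, Tlr2, Tlr4, Tlr7 and Tlr13 passed in LPS compared to control, against 21.7%, and the same 5 in LPS compared to M, against 38.7%. LPS+M compared to M had 4 (Tlr1, Tlr2, Tlr4 and Tlr13), against 14.2%, and LPS+M compared to control had 5 (Tlr2, Tlr4, Tlr13, Cd14 and Ly96), against 34.6%. Most differences of these receptors were thus smaller than 1.5-fold, including all those of Cd14 and Ly96. The median log2 difference of the 7 genes was 0.25 for LPS+M compared to LPS and 0.07 for LPS compared to control, since higher and lower genes offset each other.

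**Figure D3:**
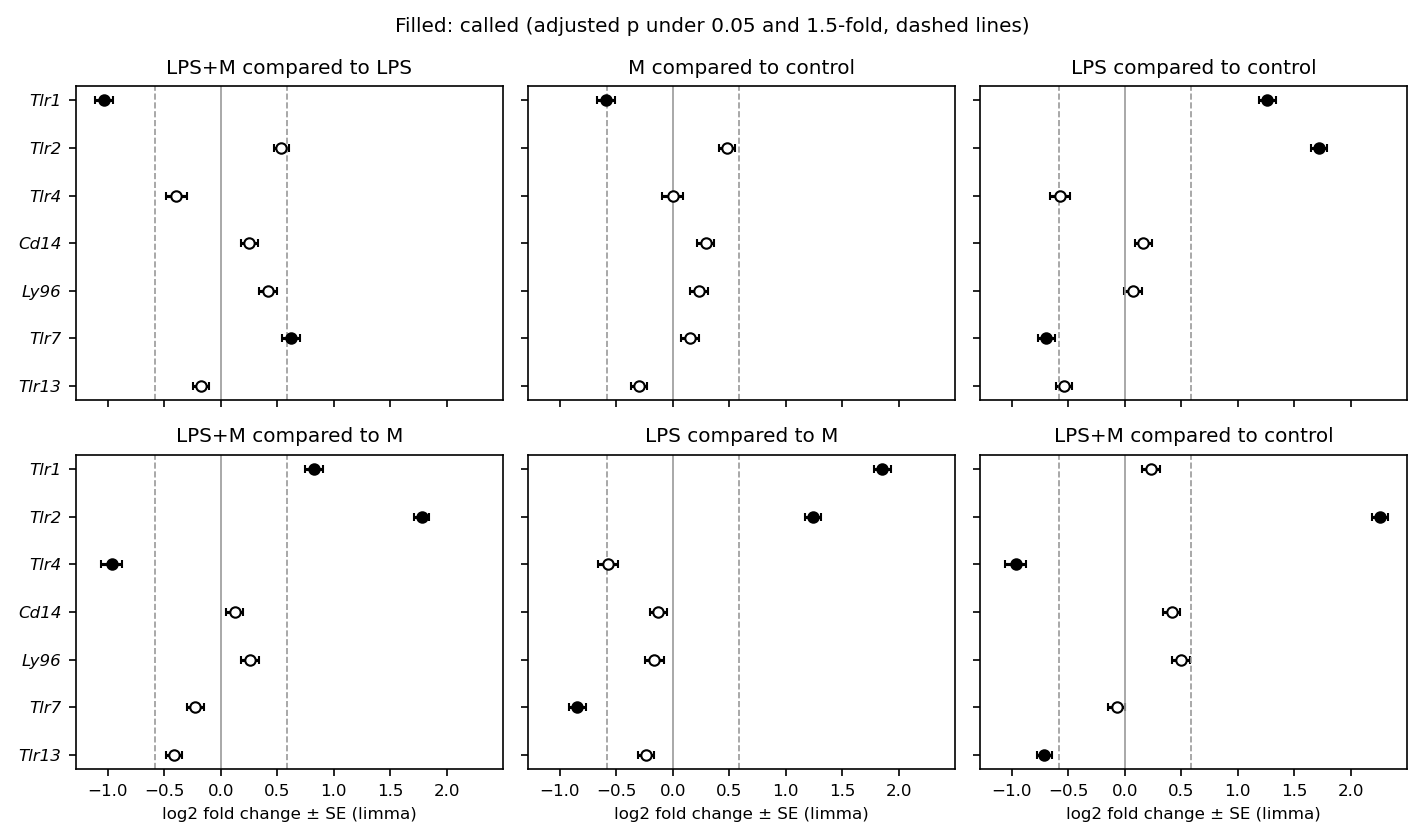
log2 fold change ± SE (horizontal axis, limma, n = 2 arrays a group) of the 7 kept genes in 6 comparisons; filled points were called, and dashed lines mark 1.5-fold. Tlr1 is filled on the negative side in LPS+M compared to LPS (-1.03) and on the positive side in LPS compared to control (1.26), and Cd14 and Ly96 are open throughout.

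The effect of menthol was then set side by side without LPS (M compared to control) and with LPS (LPS+M compared to LPS), which share no array. In the main probe sets the sign was the same for all 7 genes, although Tlr4 without LPS lay at -0.00 and the sign of Tlr7 differed with the mean of its probe sets (0.21 with LPS, -0.19 without), and it was the same for 79.1% of all 8908 kept genes. Cd14 and Tlr2 differed least between the settings, Cd14 with 0.25 with LPS and 0.29 without and Tlr2 with 0.54 with LPS and 0.48 without. Tlr1 was at -1.03 with LPS and at -0.59 without. For Tlr7 and Tlr4 the sign and size depended on the probe set. The main Tlr7 probe set gave 0.62 with LPS and 0.15 without, whereas 1419848_x_at gave 0.14 with LPS and -0.32 without, and 1449640_at gave -0.14 with LPS and -0.41 without. Tlr4 was at -0.39 with LPS in its main probe set and at 0.25 and 0.07 in 1418163_at and 1442827_at. Without LPS it was at -0.00 in the main probe set and at 0.16 and 0.05 in those others. The test of this difference, the interaction of menthol and LPS, called none of the 7 genes, against 0.236% of all kept genes. It gave -0.44 ± 0.11 for Tlr1 (adjusted p = 0.216), 0.47 ± 0.11 for Tlr7 (adjusted p = 0.184), -0.39 ± 0.13 for Tlr4 (adjusted p = 0.329) and 0.06 ± 0.10 for Tlr2 (95% interval -0.17 to 0.28, adjusted p = 0.918). The Tlr4 value is that of the main probe set. In 1418163_at the interaction was 0.09 ± 0.19 and in 1442827_at 0.02 ± 0.45, both of the opposite sign and not called. Before adjustment 3 of the 7 (Tlr1, Tlr4 and Tlr7, by main probe set) had a p under 0.05 in the limma fit, as had 10.0% of all kept genes. A larger menthol effect after LPS was therefore not shown for any of these receptors, and the intervals for Tlr1 (-0.69 to -0.18) and Tlr7 (0.22 to 0.72) leave 0 outside only before adjustment.

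**Figure D4:**
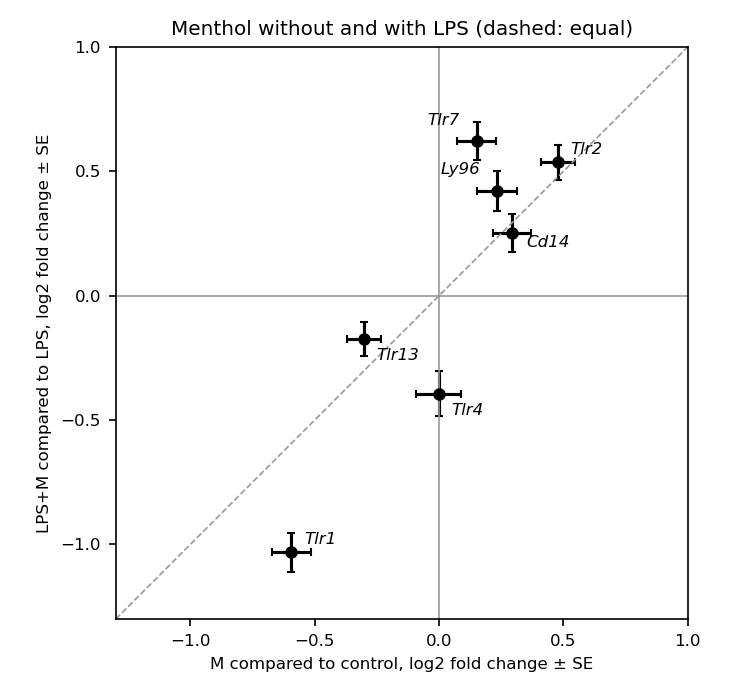
log2 fold change ± SE of the 7 kept genes for M compared to control (horizontal axis) and for LPS+M compared to LPS (vertical axis), with the dashed line where both are equal. Values are those of the main probe sets: Tlr2 lies near the line at 0.48 and 0.54, Tlr1 below it at -0.59 and -1.03, and Tlr7 above it at 0.15 and 0.62. The other Tlr7 probe sets, not drawn, would also lie above the line (interaction 0.46 and 0.26, not called). They did not share the positive sign of both menthol steps.

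Tlr1 and Tlr2 were the 2 kept genes of the 10 whose group means spanned at least 1 log2 unit, and their nearest patterns among all kept genes differed. Over the 8 arrays the Tlr1 values ran closest to those of Xylt2 (Pearson r = 0.9935), a xylosyltransferase of proteoglycan assembly, and of Gpr31b (r = 0.9932). The Tlr2 values ran closest to those of Tnip1 (r = 0.9973), which encodes an A20-binding inhibitor of NF-κB signalling, and of Marcksl1 (r = 0.9969). Group means of Tnip1 were 11.71 in LPS+M cells, 11.23 in LPS cells, 10.09 in M cells and 9.49 in control cells, the order of Tlr2. Group means of Xylt2 were 7.15 in LPS+M cells, 8.09 in LPS cells, 6.49 in M cells and 7.09 in control cells, the order of Tlr1. These correlations are descriptions over arrays that form 4 groups, with no test.

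Downstream of the receptors, 10 of 12 listed adapters and proximal kinases were measured, and all 10 were kept. Irak3, which encodes the inhibitory kinase IRAK-M, read 9.34 and 9.38 in LPS+M cells, 10.01 and 10.01 in LPS cells, 7.78 and 7.71 in M cells, and 7.79 and 7.77 in control cells. It was thus higher in both LPS groups and lower in LPS+M than in LPS cells, while M and control cells overlapped. The LPS effect (LPS compared to control) was 2.23 ± 0.06 (limma, adjusted p = 9.49e-07), and LPS+M compared to LPS gave -0.65 ± 0.06 (adjusted p = 0.000337). The interaction gave -0.62 ± 0.08 (adjusted p = 0.0419), where 0.236% of all kept genes were called. Genes called there numbered 1 to 45 over the alternatives, and the Irak3 call was not followed through them. Irak3 has 2 probe sets, of which only the brighter is given. Traf6, the ubiquitin ligase after the IRAK kinases, read 6.44 and 6.15 in LPS+M cells, 4.62 and 5.27 in LPS cells, 6.08 and 6.11 in M cells, and 5.82 and 5.91 in control cells. It was lowest in LPS cells, where its arrays also lay farthest apart. LPS replicate 1, at 4.62, lay below the filter value, and both differences given next use the LPS arrays. Traf6 has 5 probe sets, of which only the brightest is given, and the others were not compared with it. Its difference was -0.92 ± 0.19 for LPS compared to control (adjusted p = 0.0120) and 1.35 ± 0.19 for LPS+M compared to LPS (adjusted p = 0.00212). In all, LPS compared to control called 2 of the 10 higher (Irak2 and Irak3) and 1 lower (Traf6), LPS+M compared to LPS called 1 higher (Traf6) and 1 lower (Irak3), and M compared to control called none, where 6.13%, 6.71% and 4.55% of all kept genes were called. LPS compared to M called 2 higher (Irak3 and Ticam1) and 2 lower (Tirap and Traf6), where 11.3% were called. LPS+M compared to M called Irak3 alone, higher, where 4.16% were called. LPS+M compared to control called 3 higher (Myd88, Irak2 and Irak3), where 9.83% were called. Myd88, the adapter that most Toll-like receptors share, was called only in LPS+M compared to control, at 0.59 ± 0.08 (adjusted p = 0.00144), at the edge of the fold minimum.

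Among other LPS-binding and accessory proteins, 7 of 9 were kept. Casp4, the intracellular LPS sensor of non-canonical pyroptosis, read 10.46 and 10.30 in LPS+M cells, 10.51 and 10.50 in LPS cells, 8.18 and 8.35 in M cells, and 8.49 and 8.71 in control cells. It was higher in both LPS groups, with 1.91 ± 0.10 for LPS compared to control (limma, adjusted p = 1.56e-05). The LPS+M arrays lay below the LPS arrays, with means of 10.38 and 10.51, and this small difference was not called. Cd180, a Toll-like receptor homologue, lay at the filter, with a mean of 4.85 over the arrays, and was kept only through its level in LPS and control cells, so that its having passed the test is not support of its own. It read 4.29 and 4.41 in LPS+M cells, 5.26 and 5.02 in LPS cells, 4.52 and 4.72 in M cells, and 5.33 and 5.24 in control cells. The arrays with menthol lay below those without, with -0.79 ± 0.10 for LPS+M compared to LPS (adjusted p = 0.00151) and -0.66 ± 0.10 for M compared to control (adjusted p = 0.00446). The other 5 kept genes of this list were called in no comparison, and Lbp and Cd36 lay below the filter. All 9 chaperones and processing factors of the receptors, among them Unc93b1, which carries the nucleic acid receptors to endosomes, were kept, and 0 were called in any of the 7 comparisons. Of all kept genes, 4.16% to 11.3% were called in the pairwise comparisons and 0.236% in the interaction, so that 0 among 9 genes is near these shares. The log2 differences of the 9 chaperones and processing factors lay between -0.13 and 0.22 for LPS+M compared to LPS and between -0.34 and 0.11 for LPS compared to control.

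**Figure D5:**
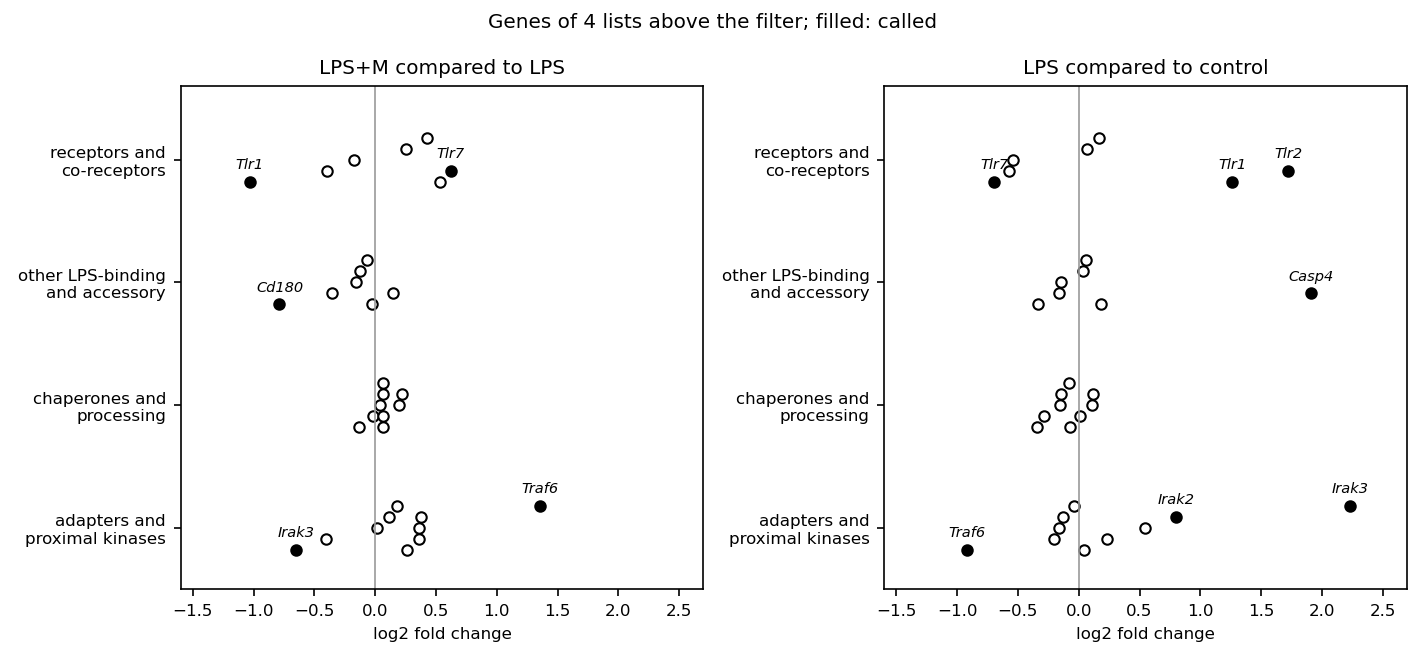
log2 fold change (horizontal axis) of the kept genes of 4 lists, stacked by list, for LPS+M compared to LPS and for LPS compared to control; filled points were called and are named. Irak3 stands at -0.65 and 2.23, Traf6 at 1.35 and -0.92, Casp4 is filled only with LPS compared to control (1.91), and no chaperone or processing gene is filled.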

How the data were processed

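Total RNA of 8 samples of RAW 264.7 cells was hybridised to Affymetrix mouse arrays. The deposited values are log2 signals that the authors computed with GCRMA (version 2.10.0, under R version 2.6.1), per the labels, and no probe-level files were used here. Such a background correction can distort folds at low signal, and the direction was not tested here. Probe sets were named from the platform annotation: 34945 had 1 symbol, 932 several and 9160 none, and only the first kind was used. In R 4.3.3, limma 3.58.1 (lmFit and eBayes) was run on all 8 arrays with 1 coefficient a group, after keeping 1 probe set a gene (the highest mean) and the genes above the mean of all probe sets. p-values were adjusted over all 8908 kept genes. Genes under the filter were read from the same fit over all 18193 genes, and single probe sets from a fit over all kept probe sets. The scripts were tested on simulated data. All 10 genes, the listed pathway genes and the 2 nearest patterns of each gene spanning at least 1 log2 unit were named. The genes and lists were chosen with earlier results of these data known. Alternatives changed the filter, probe set, normalization, test, arrays in the fit, fold minimum and replicate block, and left out each array in turn. The methods' t-test was among them. Precision is limited by 2 arrays a group.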

Additional observations from a re-analysis of the deposited data

How the results depend on the processing

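The direction of every called receptor gene held under the alternatives tried, except that 1 of the other Tlr7 probe sets stood at -0.14 in LPS+M compared to LPS. Tlr7 in M compared to control, not called, was 0.15 by its brightest probe set but -0.19 once its probe sets were averaged, which also moved Tlr4 in LPS+M compared to LPS to -0.015, against -0.39. The counts of called receptors below are given in the order M against control, LPS against control, LPS against M, LPS+M against LPS, LPS+M against M, LPS+M against control. With no fold minimum they were 4, 5, 5, 6, 4 and 5, and with a 2-fold minimum 0, 2, 2, 1, 1 and 1. The methods' t-test without adjustment called 0, 3, 3, 2, 1 and 2, and after Benjamini-Hochberg 0 in all 6, as it called 0 genes overall. With the mean of all probe sets of a gene they were 1, 4, 3, 1, 3 and 3, where Tlr4 was called in LPS compared to control (-0.75) and in LPS compared to M (-0.80), and Tlr7 stood at 0.21 in LPS+M compared to LPS and at -0.54 in LPS compared to M, both no longer called. With every probe set tested by itself they were 1, 4, 4, 2, 3 and 4. Leaving out each array in turn gave 0 to 1, 3 to 4, 3 to 4, 1 to 2, 3 to 3 and 3 to 4, and 0 for the interaction. Tlr4 was gained in LPS compared to control without control replicate 1 (-0.61) and in LPS compared to M without M replicate 2 (-0.61), Tlr13 in LPS compared to control without LPS replicate 2 (-0.60), and Ly96 in LPS+M compared to control without control replicate 2 (0.59).

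The labels do not say whether same-numbered arrays were paired. Deviations of same-numbered arrays correlated only weakly between groups, at -0.121 to 0.186, which cannot settle it, since a small shared effect could go unseen. With the replicate block the counts were 1, 3, 3, 2, 3 and 3, and 0 for the interaction, so that no receptor call changed. Counts over all genes moved by more than 1.5 times with no fold minimum (1934, 1935, 3450, 2560, 1268 and 3085), with a 2-fold minimum (85, 184, 329, 136, 136 and 268), and with the methods' t-test (254, 349, 640, 288, 217 and 503), against 405, 546, 1006, 598, 371 and 876. With the mean of probe sets they moved so far in LPS against M (663) and LPS+M against LPS (371), M against control (253) and LPS+M against control (581), and with every probe set by itself in LPS+M against LPS (925). Genes with an interaction numbered 1 to 45 over the alternatives, against 21. The causes of these shifts were not tested.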
